A study of Mus musculus with 6 samples.

Results

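The 38 genes described here encode ligands, latent binding proteins, antagonists, receptors, Smads, feedback inhibitors and targets of transforming growth factor beta (TGF-beta) and bone morphogenetic protein (BMP) signalling. They were chosen by gene symbol, and all 38 were found among the 18697 genes of the count table. The samples were prostates of mice with experimental autoimmune prostatitis (EAP), a model of chronic prostatitis driven by autoimmunity to the gland. One group was given VUF11207, a compound that activates CXCR7 (the scavenging chemokine receptor encoded by Ackr3), by intraperitoneal injection at 5 mg/kg/day for 14 days. The control group was given DMSO, the vehicle, by the same route and for the same time, at a labelled 5 mg/kg/day. Each group held 3 libraries of total RNA from whole prostate tissue, and the model was common to both groups, so no library is from an animal without EAP. The sources used here do not give strain, age or the number of animals per library. The comparison of VUF11207 with DMSO addresses the role of CXCR7 in tissue injury and fibrosis in this model.

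TGF-beta ligands are secreted in a latent complex held in the matrix by latent TGF-beta binding proteins, and the released ligand joins type II and type I receptor kinases. These phosphorylate Smad2 and Smad3, whereas BMP receptors phosphorylate Smad1 and Smad5, and both pairs enter the nucleus with the common partner Smad4. Smad6 and Smad7, themselves targets of the pathway, inhibit it in turn. In the prostate, TGF-beta restrains epithelial growth and drives the conversion of stromal fibroblasts into matrix-producing cells, and BMP signals act in branching of the gland.

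The libraries held 20308018 to 33368058 counts. One DMSO column carried no replicate number that the labels could place, and it is called the unnumbered DMSO library. All 10 luminal prostate markers were counted in every library. They took 2.99% to 9.68% of the counts with DMSO and 8.44% to 21.8% with VUF11207. The 8 seminal vesicle genes took 0.695% to 63.3%. DMSO replicate 2 held the highest seminal vesicle share and had a scaling factor of 0.425, which left it with an effective size of 14194319 counts against 27023454 to 30943239 in the other libraries. Levels below are CPM, the read counts of a gene scaled to a common library size by the trimmed mean of M-values (TMM). In CPM the luminal markers summed to 41743 to 78791 with DMSO and 83684 to 191869 with VUF11207, without overlap. Their shares of the counts overlapped. So did their levels with each marker weighted alike, as the mean of log2 CPM centred on the 6 libraries. These levels were -0.29, -0.51 and -0.36 in the unnumbered DMSO library and DMSO replicates 2 and 3. They were -0.38, 0.71 and 0.82 in VUF11207 replicates 1, 2 and 3. The part of luminal content in the levels of the members was not tested. Because the tissue was bulk, fewer cells of a type and less RNA per cell cannot be told apart.

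No member differed between VUF11207 and DMSO at an adjusted p of 0.05. Of the 38 genes, 37 passed the filter on low counts, and 0 of these 37 passed edgeR's quasi-likelihood test, where 0 of all 13753 genes tested (0.0%) passed. At an unadjusted p under 0.05 the count was 1 of 37, Smad6, where 196 of all genes (1.43%) were under it. DESeq2 called 0 members, where it called 4 of all genes (0.0231%), and had 1 member, Smad6, under an unadjusted 0.05, beside 1.95% of all genes. With limma voom 0 members were under an unadjusted 0.05, beside 1.5% of all genes. The log2 fold change (VUF11207 over DMSO) was below 0 in 27 of 37 members (73.0%) and in 55.3% of all genes, and above 0 in 10 members and in 44.7% of all genes, with medians of -0.13 and -0.041. With scaling by library totals alone, 17 of 37 members were below 0 beside 33.3% of all genes, and the median of all genes was 0.14, so a direction shared by the members is read only against that of all genes.

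The size of change that could have been seen differed by gene. For 15 members the 95% interval of the log2 fold change lay within a 2-fold change either way. These were Tgfb2, Ltbp1, Ltbp3, Ltbp4, Tgfbr1, Tgfbr2, Bmpr1a, Bmpr2, Smad1, Smad2, Smad4, Smad5, Ski, Skil and Tgif1. For the other 22 tested members the interval reached past 2-fold in at least 1 direction, and only that of Smad6 left out 0.

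**Figure D1:**
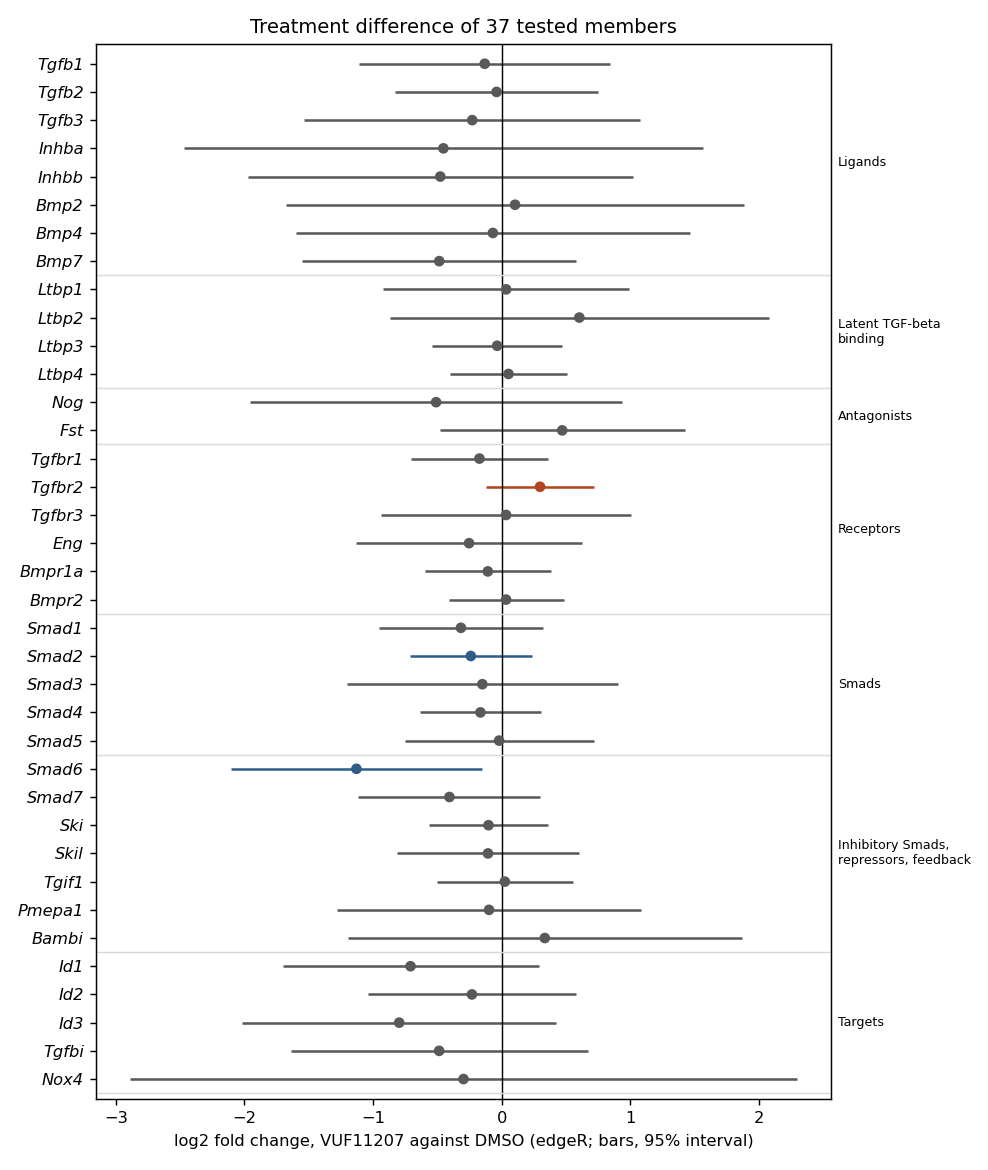
Log2 fold change of VUF11207 over DMSO (horizontal axis) for the 37 tested members in class order, with points for the edgeR estimate and bars for its 95% interval. Blue and red mark members whose groups of 3 libraries do not overlap (Smad2 and Smad6 lower, Tgfbr2 higher), and only the interval of Smad6, -2.10 to -0.16, leaves out 0.

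Levels between genes were compared per kilobase of annotated exon, as the mean and SD over all 6 libraries. The Id genes and Smad4 stood highest, with Id3 at 51.9 ± 28.5 CPM per kilobase, Id2 at 31.2 ± 9.69, Id1 at 28.4 ± 13.8 and Smad4 at 26.6 ± 3.31. These neighbours overlapped in range. Bmpr1a followed at 10.7 ± 1.58 and Bmp7 at 8.26 ± 4.35, whose ranges overlapped as well. At the low end were Nox4 at 0.0863 ± 0.0828, Inhba at 0.207 ± 0.147 and Nog at 0.393 ± 0.15. Of the 38 members, 34 had over 10 counts in every library. Grem1, which encodes the BMP antagonist gremlin, was at 2 counts in DMSO replicate 3 and 0 in the other 5 libraries. A count of 0 allows up to 3 counts, which is 0.10 to 0.21 CPM in these libraries, and counting error only is covered.

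**Figure D2:**
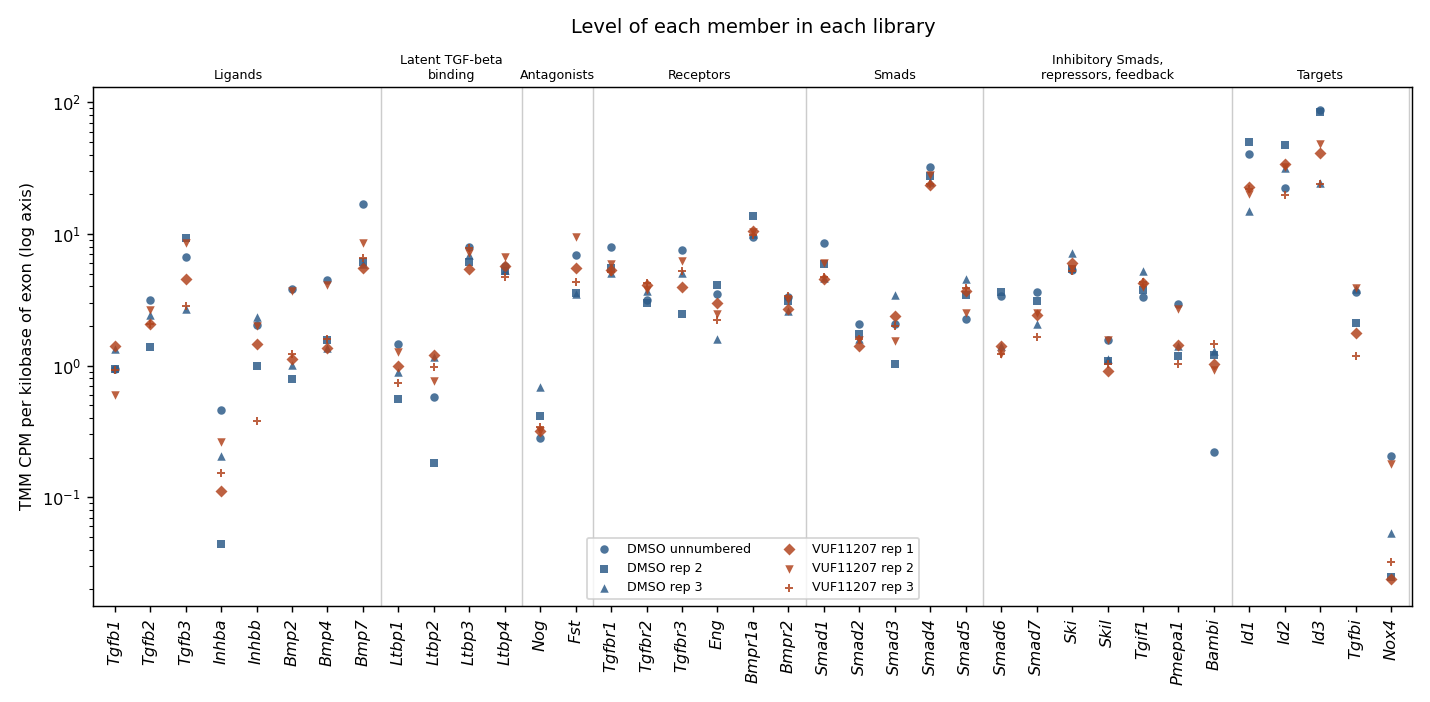
TMM CPM per kilobase of exon (log axis) of 37 members in each library, with blue symbols for DMSO and red for VUF11207, and Grem1 left out for its zeros. Blue and red symbols are mixed for most genes, Id1, Id2, Id3 and Smad4 lie highest, and Nox4 and Inhba lie lowest and spread most.

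Among the 8 ligands, 1 had a log2 fold change above 0 and 7 below it, with a median of -0.18, and none had groups that did not overlap. Tgfb1, the isoform best known for immune regulation and fibrosis, was at 4.74, 4.72 and 6.72 CPM in the unnumbered DMSO library and DMSO replicates 2 and 3, and at 7.13, 3.02 and 4.63 in VUF11207 replicates 1, 2 and 3. Its highest and lowest libraries both belonged to the VUF11207 group, and the log2 fold change was -0.13 ± 0.41 (SE), with a 95% interval of -1.11 to 0.85.

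Tgfb2, in the same order of libraries that is kept below, was at 18.4, 7.96 and 14.0 CPM with DMSO and 11.9, 15.3 and 12.1 with VUF11207. The DMSO libraries enclosed all 3 VUF11207 libraries, for a log2 fold change of -0.039 ± 0.33 (SE). Tgfb3 was at 22.7, 31.3 and 9.11 CPM with DMSO and 28.8 in VUF11207 replicate 2, against 15.3 and 9.64 in replicates 1 and 3. It thus had high and low libraries in both groups, and its log2 fold change was -0.23 ± 0.55 (SE). Per kilobase, Tgfb3 (5.76 ± 2.83) lay above Tgfb2 (2.29 ± 0.607) and Tgfb2 above Tgfb1 (1.02 ± 0.302, SD over the 6 libraries), an order found in 6 of 6 libraries.

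Bmp2 and Bmp4, ligands of the BMP branch, shared 1 high library in each group. Bmp2 was at 13.5, 2.82 and 3.59 CPM with DMSO and 3.99, 13.1 and 4.36 with VUF11207, a log2 fold change of 0.10 ± 0.75 (SE). Bmp4 was at 10.1, 3.52 and 3.07 CPM with DMSO and 3.08, 9.26 and 3.58 with VUF11207, a log2 fold change of -0.068 ± 0.64 (SE). In both genes the unnumbered DMSO library and VUF11207 replicate 2 stood well above the other 4. Bmp7, of the 8 member ligands the one with the highest level per kilobase in 5 of 6 libraries, was at 67.8 CPM in the unnumbered DMSO library and at 22.2 to 34.5 in the other 5. Its log2 fold change of -0.48 ± 0.45 (SE) became 0.20 without that library.

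Inhba and Inhbb encode the subunits of activins, which signal through Smad2 and Smad3. Inhba was low, at 2.96, 0.282 and 1.33 CPM with DMSO and 0.710, 1.68 and 0.981 with VUF11207, and its lowest value rests on 4 counts. The DMSO libraries again spanned those of the treated mice, and the interval of -2.47 to 1.56 on the log2 scale leaves room for large changes either way. Inhbb ranged from 1.62 CPM in VUF11207 replicate 3 to 9.92 in DMSO replicate 3.

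The latent TGF-beta binding proteins tether the latent complex to elastic and collagen fibres. Of 4, 3 had a log2 fold change above 0, with a median of 0.045. Ltbp3 and Ltbp4 varied by 1.45-fold and 1.43-fold between the highest and lowest library, and their log2 fold changes were -0.034 ± 0.21 and 0.054 ± 0.19 (SE). Ltbp1 ranged from 5.92 to 15.7 CPM. Ltbp2, an elastic fibre protein that does not bind latent TGF-beta, was at 4.74, 1.48 and 9.50 CPM with DMSO and 9.80, 6.27 and 7.98 with VUF11207. DMSO replicate 2 stood alone at the bottom, and the groups overlapped through DMSO replicate 3. The log2 fold change was 0.60 ± 0.62 (SE) and was 0.18 without DMSO replicate 2. Up to 9.34% of the exon length of a member is shared with another gene, the most for Ltbp2 and an opposite-strand gene, and the sources used here do not give the strand setting of the counting.

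Of the antagonists, Fst encodes follistatin, which binds activins, and Nog encodes noggin, which binds BMPs. Fst was at 31.7, 16.2 and 16.2 CPM with DMSO and 25.3, 43.8 and 19.9 with VUF11207. Its highest libraries were VUF11207 replicate 2 and the unnumbered DMSO library, and the groups overlapped. The log2 fold change was 0.47 ± 0.40 (SE), between 0.083 without VUF11207 replicate 2 and 0.87 without the unnumbered DMSO library. Without the unnumbered DMSO library its unadjusted p in edgeR was 0.0497, and the adjusted threshold was not passed. In that fit 1 of 37 members, Fst, and 246 of all 14062 genes were under an unadjusted 0.05. Nog was at 0.481 to 1.16 CPM in all 6 libraries, highest in DMSO replicate 3.

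The receptors divided evenly, with 3 of 6 above 0 and a median log2 fold change of -0.036. Tgfbr2, the type II receptor that binds TGF-beta and activates the type I receptor Tgfbr1, was at 25.6, 24.4 and 30.4 CPM with DMSO and 33.5, 30.9 and 34.6 with VUF11207. All 3 VUF11207 libraries lay above all 3 DMSO libraries, by the narrow step from 30.4 to 30.9 at the nearest pair. The mean was 33 ± 1.92 against 26.8 ± 3.17 CPM (SD, n = 3 each), and the log2 fold change was 0.30 ± 0.18 (SE), with an interval of -0.12 to 0.72 that includes 0. It was 0.25 to 0.41 in fits that left out 1 library. Tgfbr2 was 1 of 3 members (8.11%) whose groups did not overlap, a pattern found in 5.57% of all genes, and the only one higher with VUF11207, where 3.05% of all genes were.

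Tgfbr2 lies on chromosome 9 at 116084293 to 116175360 on the minus strand (mm10, GENCODE M21). The sequence before its RefSeq start site is shown because it is the member without overlap in the higher direction. It is chr9:116175364-116175613 (minus strand, GRCm38.p6, positions -250 to -1), and capitals mark CAGAC, the reverse complement of the Smad box GTCTG, at position -160. Either strand of that box is in 16 of 35 member windows and in 49.6% of 32851 RefSeq promoter windows of 300 bases, so the match is common.
Tgfbr2: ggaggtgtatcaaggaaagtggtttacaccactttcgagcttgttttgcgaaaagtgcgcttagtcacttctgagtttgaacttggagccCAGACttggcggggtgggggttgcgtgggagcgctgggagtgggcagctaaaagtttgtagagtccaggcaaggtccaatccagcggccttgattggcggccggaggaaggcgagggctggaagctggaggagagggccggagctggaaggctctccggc

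Tgfbr1, the type I TGF-beta receptor, ranged from 32.8 to 51.8 CPM with a log2 fold change of -0.17 ± 0.22 (SE). The BMP receptors were as steady. Bmpr1a, a type I receptor, had a log2 fold change of -0.11 ± 0.21, and Bmpr2, the type II receptor, had 0.035 ± 0.19 (SE). Per kilobase, Bmpr1a lay above the other 5 receptors among the members in 6 of 6 libraries, whereas the ranges of neighbours in the order Tgfbr1 (5.80 ± 1.09), Tgfbr3 (5.10 ± 1.78), Tgfbr2 (3.65 ± 0.503), Bmpr2 (3.03 ± 0.323) and Eng (2.80 ± 0.891) overlapped. Tgfbr3, the co-receptor betaglycan, ranged from 16.1 to 49.8 CPM, and its extremes were both DMSO libraries. Eng encodes endoglin, a co-receptor best known in endothelial cells. It was at 14.1, 16.5 and 6.5 CPM with DMSO and 12, 9.97 and 9.03 with VUF11207, so that the DMSO group held both its highest and lowest libraries.

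All 5 signal-transducing Smads had a log2 fold change below 0, with a median of -0.16, and none passed the test. Smad2, which carries the TGF-beta and activin signal, was at 18, 15.3 and 14.1 CPM with DMSO and 12.5, 13.7 and 14.0 with VUF11207. Every VUF11207 library lay below every DMSO library, but DMSO replicate 3 and VUF11207 replicate 3 were almost equal. Its log2 fold change was -0.24 ± 0.20 (SE), with an interval of -0.71 to 0.23. Smad3, the other mediator of that branch, was at 11.4, 5.71 and 19.1 CPM with DMSO and 13.2, 8.46 and 11.1 with VUF11207. DMSO replicates 2 and 3 enclosed all other libraries, and the log2 fold change of -0.15 ± 0.44 (SE) became 0.35 without DMSO replicate 3.

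Smad1, a mediator of the BMP branch, was at 53.3, 36.7 and 28.8 CPM with DMSO and 28.5, 37.4 and 29.6 with VUF11207. The unnumbered DMSO library was highest and the other 5 libraries of both groups were mixed, for a log2 fold change of -0.32 ± 0.27 (SE). Smad5 ranged from 16.8 to 33.6 CPM, both in DMSO libraries, and its log2 fold change was only -0.019 ± 0.31 (SE). Smad4 lay above each receptor-regulated Smad per kilobase in 6 of 6 libraries, and its log2 fold change of -0.16 ± 0.20 (SE) was 0.012 with scaling by library totals alone.

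Among the inhibitory Smads, repressors and feedback genes, 2 of 7 had a log2 fold change above 0, with a median of -0.10. Smad6, which inhibits BMP receptor signalling above all, was at 10.8, 11.6 and 4.52 CPM with DMSO and 4.50, 3.89 and 3.92 with VUF11207, from 293, 165 and 140 counts against 133, 116 and 116. The unnumbered DMSO library and DMSO replicate 2 were high, and DMSO replicate 3 lay with the treated libraries, just above the highest of them. The means were 4.10 ± 0.340 with VUF11207 and 9.0 ± 3.89 CPM with DMSO (SD, n = 3 each). The log2 fold change was -1.13 ± 0.41 (SE), with an interval of -2.10 to -0.16, an unadjusted p of 0.0289 and an adjusted p of 1.0 in edgeR's quasi-likelihood test. The log2 fold change of Smad6 was -1.45 without DMSO replicate 3 and -0.89 without DMSO replicate 2. The unadjusted p was over 0.05 in each of the 5 fits that left out 1 library other than DMSO replicate 3 (0.0616 to 0.102), at 0.0899 in limma voom, at 0.162 without the 2 libraries richest in seminal vesicle counts, and at 0.288 with scaling by library totals alone. Together with Smad2, Smad6 made 2 members without overlap in the lower direction, beside 2.52% of all genes.

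Smad6 lies on chromosome 9 at 63953076 to 64022059 on the minus strand (mm10, GENCODE M21). Its start region is shown because it is the member with the smallest p and the 1 of 35 member windows with the palindromic Smad-binding element GTCTAGAC, which is in 70 of 32851 windows (0.213%). The stretch is chr9:64022056-64022169 (minus strand, GRCm38.p6, positions -110 to 4), with the element in capitals from position -4. The GC-rich element GGCGCC, bound by Smads of the BMP branch, was searched for as well and is in 11 of 35 member windows and 11.9% of all windows. The 35 windows belong to 25 members, and Ltbp4 and Smad5 each hold more than 1 of the 11. Windows of 1 gene are not independent, and the difference in share was not tested. The match describes letters only, and binding was not measured.
Smad6: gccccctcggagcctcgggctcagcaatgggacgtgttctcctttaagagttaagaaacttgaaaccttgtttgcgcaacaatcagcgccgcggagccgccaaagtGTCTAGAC

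Smad7, which inhibits both branches, was at 16.2, 13.9 and 9.44 CPM with DMSO and 11, 11.4 and 7.47 with VUF11207. As in Smad6, the unnumbered DMSO library and DMSO replicate 2 were highest, and the groups overlapped through DMSO replicate 3. The log2 fold change was -0.41 ± 0.30 (SE). The nuclear repressors Ski, Skil and Tgif1 had log2 fold changes of -0.10 ± 0.19, -0.11 ± 0.30 and 0.026 ± 0.22 (SE). Pmepa1, a TGF-beta target that restrains Smad2 and Smad3 activation, ranged from 5.04 to 14.3 CPM and was again high in the unnumbered DMSO library and VUF11207 replicate 2. Bambi encodes a pseudoreceptor without a kinase domain. It was at 1.11, 6.13 and 6.5 CPM with DMSO and 5.17, 4.73 and 7.41 with VUF11207. The unnumbered DMSO library stood alone at the bottom, and the log2 fold change of 0.34 ± 0.64 (SE) was -0.13 without it.

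All 5 targets had a log2 fold change below 0, with a median of -0.49. The Id genes encode inhibitors of basic helix-loop-helix factors and are direct targets of the BMP branch. Id1 was at 47.0, 58.3 and 17.4 CPM with DMSO and 26.3, 23.4 and 25.3 with VUF11207. The VUF11207 libraries were close to each other, with 2 DMSO libraries above them and DMSO replicate 3 below them. Its log2 fold change was -0.71 ± 0.42 (SE), with an interval of -1.70 to 0.29.

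Id3 was at 158, 152 and 43.9 CPM with DMSO and 73.5, 87.1 and 43.0 with VUF11207, and the same 2 DMSO libraries stood above the rest. Its log2 fold change was -0.80 ± 0.51 (SE), with an interval of -2.02 to 0.42. Without DMSO replicate 3 the log2 fold changes of Id1 and Id3 were -1.07 and -1.19. Smad6, Id1 and Id3 then had an unadjusted p under 0.05 in edgeR, of 0.00301, 0.00232 and 0.0132, with none past the adjusted threshold. These were 3 of 37 members, where 685 of all 14126 genes were under an unadjusted 0.05. With all 6 libraries 196 of 13753 genes were, so leaving out that library lowered p in many genes. Id2 did not share the high libraries. It ranged from 48.2 CPM in VUF11207 replicate 3 to 115 in DMSO replicate 2 and had a log2 fold change of -0.23 ± 0.34 (SE).

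Tgfbi and Nox4 are targets of TGF-beta, the first a secreted matrix protein and the second an NADPH oxidase. Tgfbi ranged from 4.46 to 14.7 CPM, both in VUF11207 libraries, with a log2 fold change of -0.49 ± 0.49 (SE). Without VUF11207 replicate 2 it was -1.11, with an unadjusted p of 0.0336 in edgeR. In that fit 1 of 37 members, Tgfbi, and 178 of all 14082 genes were under an unadjusted 0.05. Nox4 had the largest SD of log2 CPM of the 37 tested members, at 1.74, 0.211 and 0.452 CPM with DMSO and 0.203, 1.51 and 0.271 with VUF11207, from as few as 3 counts. It was high in 1 library of each group, and its interval ran from -2.89 to 2.3.

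**Figure D3:**
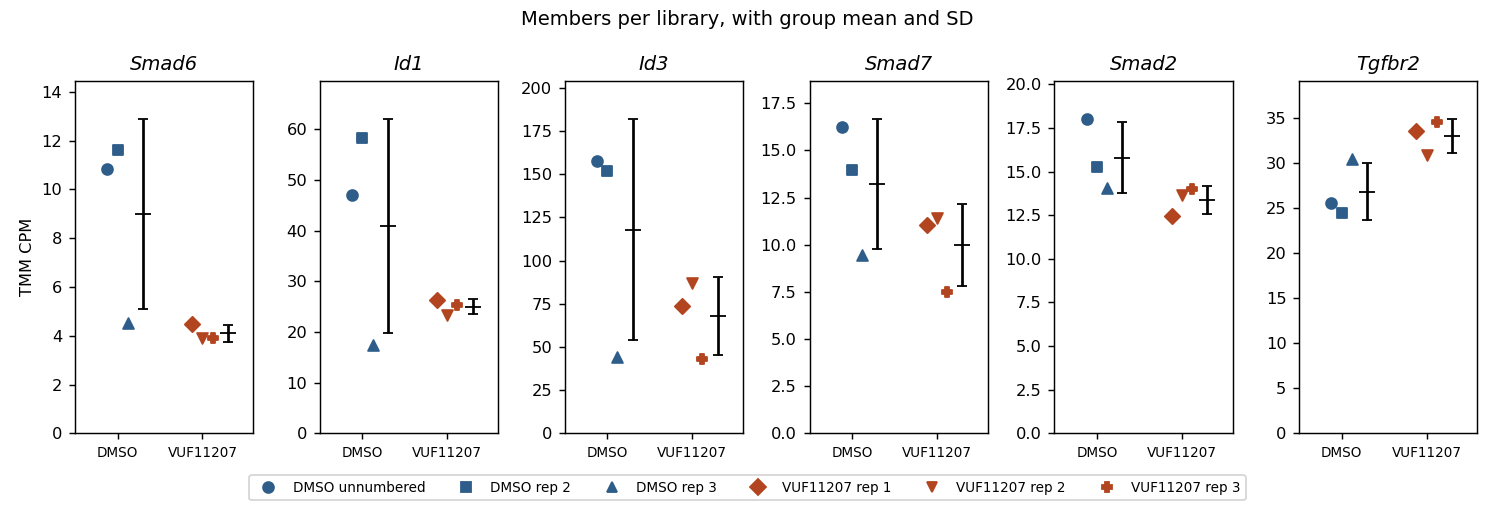
TMM CPM of Smad6, Id1, Id3, Smad7, Smad2 and Tgfbr2 in each library (linear axes from 0), with bars for the group mean and SD of 3 libraries. In Smad6, Id1 and Id3 the unnumbered DMSO library and DMSO replicate 2 stand apart from DMSO replicate 3, and in Tgfbr2 the VUF11207 libraries lie at 30.9 to 34.6 above the DMSO libraries at 24.4 to 30.4.

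Most members varied more between libraries of a group than between groups. The share of a member's variation in log2 CPM (sum of squares over the 6 libraries) that lay between groups had a median of 5.97%, beside 8.05% over all genes tested. It was over 50% in 2 of 37 members, Tgfbr2 at 66.6% and Smad6 at 56.8%, and in 839 of all 13753 genes tested. The unnumbered DMSO library and VUF11207 replicate 2 were the 2 highest libraries in 15 of 37 members (40.5%) and in 20.1% of all genes. These members were Tgfb2, Inhba, Bmp2, Bmp4, Bmp7, Ltbp1, Ltbp4, Fst, Tgfbr1, Tgfbr3, Smad1, Smad4, Skil, Pmepa1 and Nox4, so they included ligands, matrix-binding proteins, receptors and targets. DMSO replicate 3 and VUF11207 replicate 1 were the 2 highest in 4 members (10.8%), Tgfb1, Ltbp2, Smad3 and Ski, and in 11.1% of all genes.

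**Figure D4:**
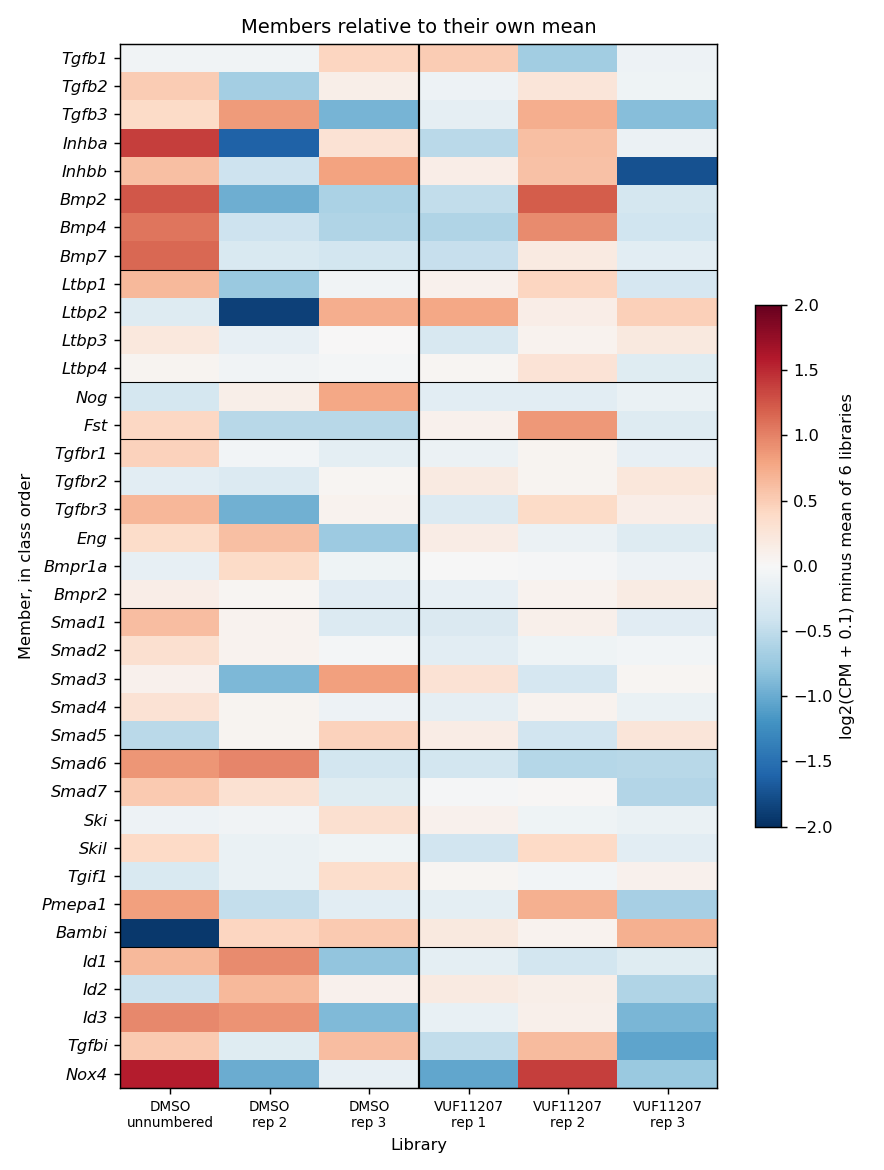
Log2(CPM + 0.1) of each tested member minus its mean over the 6 libraries (colour), with members in class order and a black line between the DMSO libraries on the left and the VUF11207 libraries on the right. The unnumbered DMSO library and VUF11207 replicate 2 share red cells in Bmp2, Bmp4, Pmepa1 and Nox4, and no class is uniformly red on 1 side of the line.

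Of 14 marker lists, 4 had the same 2 highest libraries, those of fibroblasts, smooth muscle, T cells and macrophages. The B cell list was highest in VUF11207 replicate 2 and DMSO replicate 3, and the endothelial list was lowest in VUF11207 replicate 2. To give a list 1 level per library, the log2 CPM of each gene was centred on its 6-library mean and the centred values were averaged. For the 10 fibroblast markers, all counted in every library, it was 0.43 in the unnumbered DMSO library and 0.57 in VUF11207 replicate 2, and -0.61 to -0.094 in the other 4. Their summed CPM was 236 to 473 with DMSO and 382 to 568 with VUF11207. For the 10 smooth muscle markers, also counted in every library, the levels were 0.85 and 1.22 in those 2 libraries and at most 0.31 in the others, with a summed CPM of 5315 to 16959 with DMSO and 4643 to 21624 with VUF11207. T cell markers, 8 of 10 of them counted in every library with Cd28 and Cd5 at 0 in at least 1, were at 1.09 and 1.08 against at most 0.099, and summed to 23.4 to 61.2 CPM with DMSO and 19.9 to 80.0 with VUF11207. Macrophage markers, all 10 counted in every library, were at 0.76 and 0.48 against at most 0.27, and summed to 112 to 209 CPM with DMSO and 90.5 to 176 with VUF11207. Their part in the levels of the 15 members was not tested. The pair of DMSO replicate 3 and VUF11207 replicate 1 was about as frequent among the members (10.8%) as over all genes (11.1%). It is thus not particular to the members. These 2 libraries, where Tgfb1, Ltbp2, Smad3 and Ski were highest, were also the 2 highest for the skeletal muscle, Schwann cell and adipocyte lists. Skeletal muscle markers, 9 of 10 of them counted in every library with Myh2 at 0 in at least 1, were at 3.97 and 4.14 there against at most 0.40 in the others, and summed to 419 to 5519 CPM with DMSO and 615 to 5876 with VUF11207. The 4 Schwann cell markers, counted in every library, were at 1.10 and 1.31 against at most -0.085, and summed to 1.97 to 19.7 CPM with DMSO and 4.94 to 18.9 with VUF11207. Adipocyte markers, 2 of 6 of them counted in every library with Adipoq, Cidec, Lep and Plin1 at 0 in at least 1, were at 0.24 and 1.11 against at most 0.12, and summed to 15.7 to 40.3 CPM with DMSO and 22 to 64.6 with VUF11207. The part of these lists in the 4 members was not tested.

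A second pattern joined 6 members (16.2%) whose 2 highest libraries were the unnumbered DMSO library and DMSO replicate 2, against 8.53% of all genes. They were Smad6, Smad7, Id1, Id3, Smad2 and Eng. Endothelial markers, all 10 counted in every library, had levels of 0.63, 0.14 and -0.15 with DMSO and 0.21, -0.66 and -0.17 with VUF11207. They summed to 83.0, 65.2 and 52.0 CPM with DMSO and 63.5, 36.4 and 47.8 with VUF11207, so the groups overlapped. The highest library was the unnumbered DMSO library, as in Smad2, Smad7 and Id3, but the next was VUF11207 replicate 1 and not DMSO replicate 2. Over the 6 libraries, the Pearson r of log2 CPM with the endothelial level ran from 0.51 in Id3 to 0.72 in Smad6 among these 6 members. For Smad2 and Smad7 the red blood cell marker list had a higher r, of 0.72 and 0.59. These r values are descriptions over 6 libraries. The part of endothelial content in these members was not tested.

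**Figure D5:**
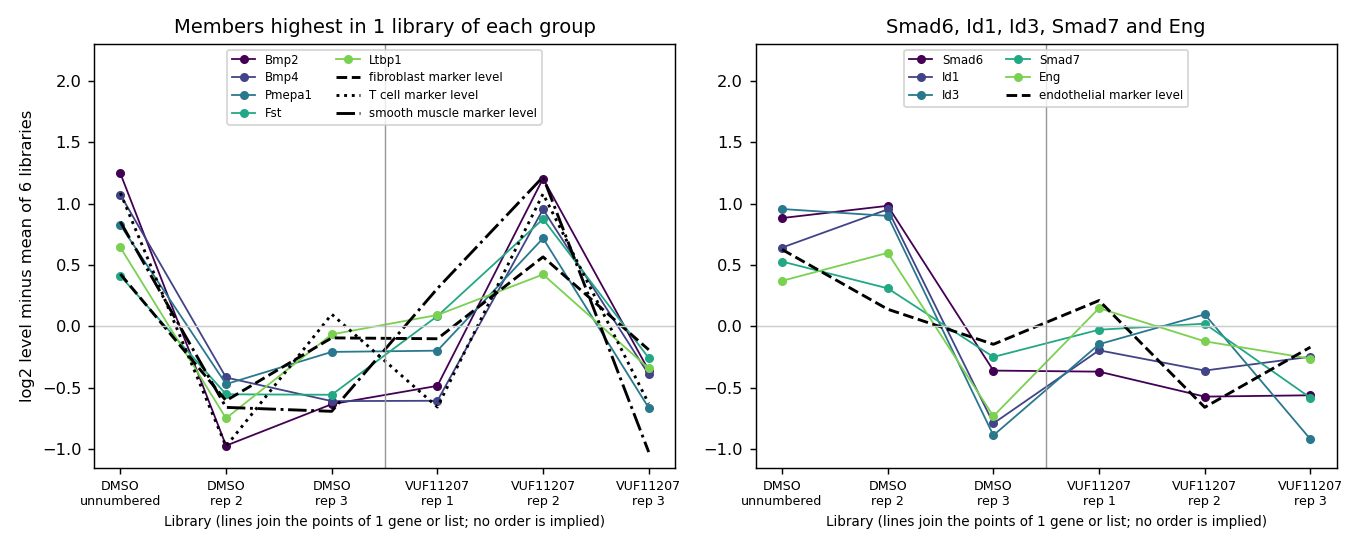
Log2 level minus the mean of 6 libraries for selected members (coloured lines, log2(CPM + 0.1)) and marker lists (black lines). Left, Bmp2, Bmp4, Pmepa1, Fst and Ltbp1 are high with the fibroblast, T cell and smooth muscle lists in the unnumbered DMSO library and VUF11207 replicate 2, and right, Smad6, Id1, Id3, Smad7 and Eng are high in the unnumbered DMSO library and DMSO replicate 2, whereas the endothelial list is highest in the unnumbered DMSO library and VUF11207 replicate 1.

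Other genes of the pathway were read from a list of 92, of which 91 were in the table and 73 were tested. None passed edgeR's test, and 2 of 73 had an unadjusted p under 0.05, beside 1.43% of all genes. Of the 73, 34 (46.6%) had a log2 fold change above 0, beside 44.7% of all genes, with medians of -0.018 and -0.041. In 4 (5.48%) the groups did not overlap, beside 5.57% of all genes. Cdkn1a, the cell cycle inhibitor p21 that TGF-beta and p53 induce, was at 6.03, 6.76 and 10.9 CPM with DMSO and 15.8, 13.3 and 25.2 with VUF11207. All VUF11207 libraries were above all DMSO libraries, and the log2 fold change was 1.19 ± 0.35 (SE), with an unadjusted p of 0.0123 and an adjusted p of 1.0 in edgeR.

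Acvr1, a type I receptor for BMPs and activins, was at 2.59, 5.00 and 7.79 CPM with DMSO and 9.50, 10.6 and 10.8 with VUF11207. The treated libraries were close together and above the wider DMSO group, with a log2 fold change of 1.0 ± 0.42 (SE), an unadjusted p of 0.0479 and an adjusted p of 1.0 in edgeR. In the lower direction, Smurf2, a ubiquitin ligase that degrades Smads and receptors, was at 40.9, 39.2 and 31.4 CPM with DMSO and 29.8, 29.3 and 23.9 with VUF11207, a log2 fold change of -0.42 ± 0.19 (SE). Tgif2, a Smad corepressor, was at 1.89, 1.76 and 1.36 CPM with DMSO and 0.980, 0.604 and 0.710 with VUF11207, a log2 fold change of -1.12 ± 0.51 (SE). Both had every treated library below every DMSO library, and neither passed the test. Klf10, an early target of TGF-beta, had the next smallest p and overlapping groups, with a log2 fold change of -0.93 ± 0.53 (SE).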

How the data were processed

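Per the submitters' processing notes, the authors used fastp, HISAT2, HTSeq and mouse build mm10, without versions, and per the labels' protocols libraries were made from total RNA. The authors deposited raw read counts as whole numbers, 1 row per gene symbol. The column of 1 DMSO library matched no sample's own file and entered its group without a replicate number. The other 5 columns were identical to the samples' own files. No label ties a library to an animal, and the p-values therefore cover the spread between these samples, which may be technical.

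The members and gene lists were chosen with earlier results of these data known. Counts of all genes were fitted in edgeR 4.0.16 (R 4.3.3; TMM, filterByExpr, robust quasi-likelihood test, two-sided, Benjamini-Hochberg over 13753 genes, threshold 0.05) with 4 residual degrees of freedom and a common biological coefficient of variation of 51.4%. The fit was also run on simulated counts with known changes, and the share it recovered is not given here. SE and 95% intervals came from the fold change and its F statistic. An exact permutation test of 3 against 3 libraries cannot go below 0.1, so none was run. Exon lengths and positions were from GENCODE M21 and promoters from RefSeq (GRCm38.p6), which held windows for 25 of 38 members. Members with values for every library were those without overlap between groups, the 8 with the smallest p, the 5 with the largest spread and class representatives (Tgfb1, Tgfb2, Tgfb3, Tgfbr2, Smad3, Smad7, Bmp4, Id1), and Eng, chosen after its values were seen. Other pathway genes were named by the 5 smallest p or, among those tested, by groups without overlap. Alternatives were DESeq2 1.42.0, limma voom 3.58.1, other scaling and filters, libraries left out and a replicate block.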

Additional observations from a re-analysis of the deposited data

How the results depend on the processing

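No member passed the threshold under the settings of the report or in any of 15 alternatives. Of all genes, 4 passed in DESeq2 and 3 with scaling by library totals alone, none of them a member. The members below 0 numbered 17 with scaling by library totals alone and 20 to 28 of 37 when 1 library was left out, and the members' median was then -0.24 to -0.052. With totals alone the median was 0.012 and the log2 fold change changed sign in Tgfb3 (0.19), Bmp4 (0.0058), Ltbp3 (0.11), Eng (0.048), Bmpr1a (0.18), Smad4 (0.012), Smad5 (0.17), Ski (0.048), Skil (0.043) and Id2 (0.13). Without the 2 libraries with most seminal vesicle counts it did so in Tgfb3 (0.30), Ltbp1 (-0.22), Ltbp3 (0.040), Tgfbr3 (-0.11), Bmpr1a (0.083) and Tgif1 (-0.027). In Smad5 it was 0.011 in limma voom and 0.0075 without the 50 most abundant genes.

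Same-numbered libraries did not deviate together (Pearson r of -0.33 for replicate 2 and 0.053 for replicate 3, across genes). Deviations from a mean of 3 libraries depend on each other and on tissue content. The r values therefore cannot show whether the numbers pair the samples, which the labels do not state. A replicate block over replicates 2 and 3 only, which drops the unnumbered DMSO library and VUF11207 replicate 1, called 0 members. In it 18 of 37 members (48.6%) were below 0, beside 48.5% of all genes. The members' median was 0.0019, beside 0.014 for all genes. In that block fit the sign changed in Tgfb2 (0.37), Inhba (0.94), Bmp4 (0.82), Bmp7 (0.33), Ltbp3 (0.22), Tgfbr1 (0.084), Smad1 (0.044), Smad4 (0.0019), Skil (0.22), Tgif1 (-0.084), Pmepa1 (0.38), Bambi (-0.077) and Nox4 (0.96).

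When 1 library was left out, 13 members kept their sign in every such fit, and 11 did so in all alternatives. The other 24 changed sign in at least 1 fit, with log2 fold changes of Tgfb1 -0.47 to 0.13, Tgfb2 -0.29 to 0.25, Tgfb3 -0.75 to 0.18, Inhba -0.92 to 0.44, Bmp2 -0.66 to 1.15, Bmp4 -0.73 to 0.69, Bmp7 -0.73 to 0.20, Ltbp1 -0.23 to 0.46, Ltbp3 -0.14 to 0.13, Ltbp4 -0.077 to 0.18, Tgfbr1 -0.29 to 0.056, Tgfbr3 -0.28 to 0.46, Eng -0.56 to 0.022, Bmpr1a -0.21 to 0.092, Bmpr2 -0.054 to 0.15, Smad3 -0.47 to 0.35, Smad5 -0.24 to 0.25, Ski -0.18 to 0.053, Skil -0.37 to 0.089, Tgif1 -0.10 to 0.25, Pmepa1 -0.58 to 0.41, Bambi -0.13 to 0.69, Id2 -0.45 to 0.10 and Nox4 -1.75 to 0.94. The causes were not tested. With 3 libraries a group and this spread, a 2-fold change was within the interval of 22 of 37 members, and depth limits Grem1, Nox4, Inhba and Nog, which had 10 or fewer counts in at least 1 library.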
